A study of Mus musculus with 24 samples.

Results

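The genes described here are 6 secreted Wnt antagonists (Frzb, Sfrp1, Sfrp2, Sfrp5, Dkk1 and Dkk3) and 4 Wnt target genes (Axin2, Sp5, Lef1 and Nkd1), taken by symbol from a table of 17545 genes. All 10 were listed, as protein-coding genes. Mouse embryonic stem (ES) cell lines derived from blastocysts were studied in 4 genotypes: Cdc14ab KO, lacking both phosphatase genes Cdc14a and Cdc14b, Cdc14b KO, Cdc14a KO and wild type (WT). Each genotype had 2 clones, numbered 1 and 3, and each clone was collected at days 0, 2 and 7, which gave 12 groups of 2 libraries. At day 0 the cells were in medium with LIF, the cytokine that keeps ES cells undifferentiated. They had been grown on feeder cells, which had been depleted by plating on gelatin. Neural differentiation took place in N2B27 medium with EGF and FGF2, and at day 6 the cells were replated on laminin and both growth factors were withdrawn. Strain, sex and the deleted part of each gene are not given in the labels. The lines labelled Cdc14ab KO or Cdc14b KO are called Cdc14b-null below, and those labelled Cdc14a KO or WT are called Cdc14b-intact.

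Canonical Wnt signalling begins when a Wnt ligand binds a Frizzled receptor with the co-receptor Lrp5 or Lrp6, which stops the destruction complex of Axin, Apc and Gsk3 from degrading beta-catenin. Beta-catenin then enters the nucleus and activates genes together with TCF and LEF factors. Secreted Frizzled-related proteins (Frzb and the Sfrp genes) bind Wnt ligands outside the cell, and Dkk1 blocks the co-receptors. Dkk3 belongs to the Dickkopf family by sequence, but its action on Wnt signalling is less settled. Axin2 and Nkd1 are themselves feedback inhibitors of the pathway that it switches on. Sp5 is a target that encodes a transcription factor, and Lef1 encodes one of the pathway's own transcription factors. In mouse ES cells Wnt activity supports self-renewal, and in the embryo its inhibition favours anterior neural fate.

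RNA was sequenced from the 3′ end of transcripts, so that each transcript gives about 1 read whatever its length, and values are read counts scaled by the authors for depth (normalized counts). A gene is called changed where its limma p, adjusted by Benjamini-Hochberg over all 16158 genes tested, is under 0.05, and changes are log2 differences of normalized count + 1. Libraries held 6422883 to 10856721 reads. Between 7.97% and 10.8% of reads fell on Gm42418, a locus that collects ribosomal RNA reads, in 3 libraries (Cdc14ab KO day 0 clone 1, Cdc14b KO day 0 clone 3 and Cdc14a KO day 2 clone 1), and at most 5.11% in the others. The WT day 7 clone 3 library has a title and treatment of 7 days of differentiation, but its description calls it undifferentiated. Its summed neuron markers were the highest of all libraries (10453 normalized counts), and day 7 results called for a member are given with and without it. Reads from the 3′ end did not check the genotypes. Cdc14b had 233 to 325 normalized counts at day 0, 96.7 to 212 at day 2 and 101 to 157 at day 7 in lines labelled null for it, against 104 to 168, 141 to 288 and 164 to 197 on the same days in lines labelled intact. Cdc14a had 4.2 to 25.9 normalized counts in lines labelled null and 4.4 to 28.0 in the others. Pluripotency markers (10 of 10 listed) summed to 29517 to 52989 normalized counts at day 0, 10691 to 30082 at day 2 and 9859 to 23464 at day 7. Neural progenitor markers (9 of 10 listed) summed to 458 to 947 at day 0, 840 to 2678 at day 2 and 992 to 5290 at day 7, and 5 of the 9 were called higher at day 7 than at day 0. Neuron markers (10 of 10 listed) summed to 2055 to 4893 at day 0, 1962.5 to 3999 at day 2 and 1252 to 10453 at day 7. Of these 10, 4 were called higher and 3 lower at day 7 than at day 0, when 20.9% of all genes were higher and 17.4% lower.

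Frzb rose early and stayed high, and it was the member with the largest change over days. The gene lies at chr2:80411970-80447625 on the minus strand (GRCm38). At day 0 it had 0 and 13.7 normalized counts in the Cdc14ab KO clones, 15.4 and 25.6 in Cdc14b KO, 6.24 and 8.08 in Cdc14a KO, and 8.54 and 13.0 in WT (clone 1, then clone 3). At day 2 it had 76.4 and 381 in Cdc14ab KO, 37.9 and 246.6 in Cdc14b KO, 244.5 and 409 in Cdc14a KO, and 394 and 830.4 in WT. At day 7 it had 66.8 and 206 in Cdc14ab KO, 42.5 and 261 in Cdc14b KO, 204 and 443 in Cdc14a KO, and 312 and 452 in WT. Every day 2 and day 7 library was above every day 0 library, as were those of 2.15% of all genes at day 2 and of 5.42% at day 7, and days 2 and 7 overlapped. The count of 0 in Cdc14ab KO clone 1 at day 0 allows up to 3 reads, or 3.8 normalized counts, by counting error alone.

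Averaged over the 4 genotypes, Frzb was 4.66 ± 0.55 (SE) log2 units higher at day 2 than at day 0 (limma adjusted p = 3.83e-05, 25.3-fold on the scale of normalized count + 1), in 8 of 8 lines. Between day 7 and day 0 the difference was 4.39 ± 0.55 (adjusted p = 1.19e-05), again in 8 of 8 lines. Day 7 against day 2 did not pass the test (-0.27 ± 0.55, adjusted p = 0.765). The calls against day 0 held in all 26 alternatives tried.

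Within single genotypes, 2 libraries against 2, Frzb rose by day 2 in Cdc14ab KO (5.49 ± 1.11, adjusted p = 0.0422), Cdc14a KO (5.29 ± 1.11, adjusted p = 0.041) and WT (5.63 ± 1.11, adjusted p = 0.0365). In Cdc14b KO the day 2 change was 2.23 ± 1.11 (adjusted p = 0.655), and 0.0371% of all genes were called in that comparison, against 0.322%, 0.427% and 0.353% in the other genotypes. By day 7 it had risen in Cdc14ab KO (4.95, adjusted p = 0.00761), Cdc14a KO (5.22, adjusted p = 0.00809) and WT (5.02, adjusted p = 0.0102), when 16.8%, 9.26% and 7.35% of all genes were called there. In Cdc14b KO it was 2.36 (adjusted p = 0.249, and 0.0203 with lines paired as a replicate block), when 4.62% of genes were called. The difference in the Frzb change between Cdc14b-null and Cdc14b-intact lines was not called, at -1.60 by day 2 (95% interval -3.93 to 0.73) and -1.47 by day 7 (95% interval -3.80 to 0.86). These single-genotype calls rest on few libraries. The day 2 call was lost without any 1 of the 4 libraries in Cdc14a KO (adjusted p = 0.133 to 0.241) and in WT (0.0552 to 0.321), and in Cdc14ab KO without day 0 clone 1 (3.55, adjusted p = 0.614), day 2 clone 1 (0.0658) or day 2 clone 3 (0.318). With edgeR it was lost in Cdc14ab KO (0.0854) and Cdc14a KO (0.0613), and with a pseudocount of 0.25 in Cdc14a KO (0.0754) and WT (0.0683). In Cdc14ab KO it was also lost with a pseudocount of 5 (0.0552) and with only the groups compared (0.583). Without the libraries rich in Gm42418 it was lost in Cdc14ab KO (change of 3.55) and Cdc14a KO (5.66). The day 7 call in Cdc14ab KO was lost with only the groups compared (0.109) and without the libraries rich in Gm42418 (3.01). The day 7 call was lost without day 0 clone 1 in Cdc14ab KO (3.01, adjusted p = 0.164), Cdc14a KO (0.0662) and WT (0.0679), and without day 7 clone 3 in each (0.0843, 0.0936 and 0.124).

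Frzb also differed between clones in a repeated way. Clone 3 had more Frzb than clone 1 in all 4 genotypes at all 3 days, by 0.33 to 3.88 log2 units at day 0, 0.74 to 2.67 at day 2 and 0.53 to 2.59 at day 7. The summed feeder fibroblast markers (all 10 listed) were higher in clone 3 than in clone 1 in 1 of 4 genotypes at day 0 (166 to 278 normalized counts in clone 3, 189 to 467 in clone 1), in 4 of 4 at day 2 (668 to 1877 in clone 3, 145.5 to 370.4 in clone 1) and in 2 of 4 at day 7 (377 to 2749 in clone 3, 947 to 3224 in clone 1). At day 2 the clone 1 libraries, with feeder sums of 145.5 to 370.4 against 166 to 467 over all day 0 libraries, had 37.9 to 394 normalized counts of Frzb. The part of feeder cells in the Frzb values of either clone was not tested. Among genes with a mean of at least 20 normalized counts (11064 ranked), the profiles most like that of Frzb across the 24 libraries were those of Hunk (Pearson r = 0.944), Rgs2 (0.941), Igdcc3 (0.930), Zfp618 (0.920) and Bnip2 (0.920). These libraries share lines and days, so the r is a description. Of the members, Dkk3 (r = 0.808) and Nkd1 (0.669) came nearest to Frzb. The other antagonists had 0.318 (Sfrp5), 0.310 (Sfrp2), 0.277 (Dkk1) and -0.259 (Sfrp1), and the other targets 0.071 (Axin2), 0.043 (Sp5) and -0.168 (Lef1).

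**Figure D1:**
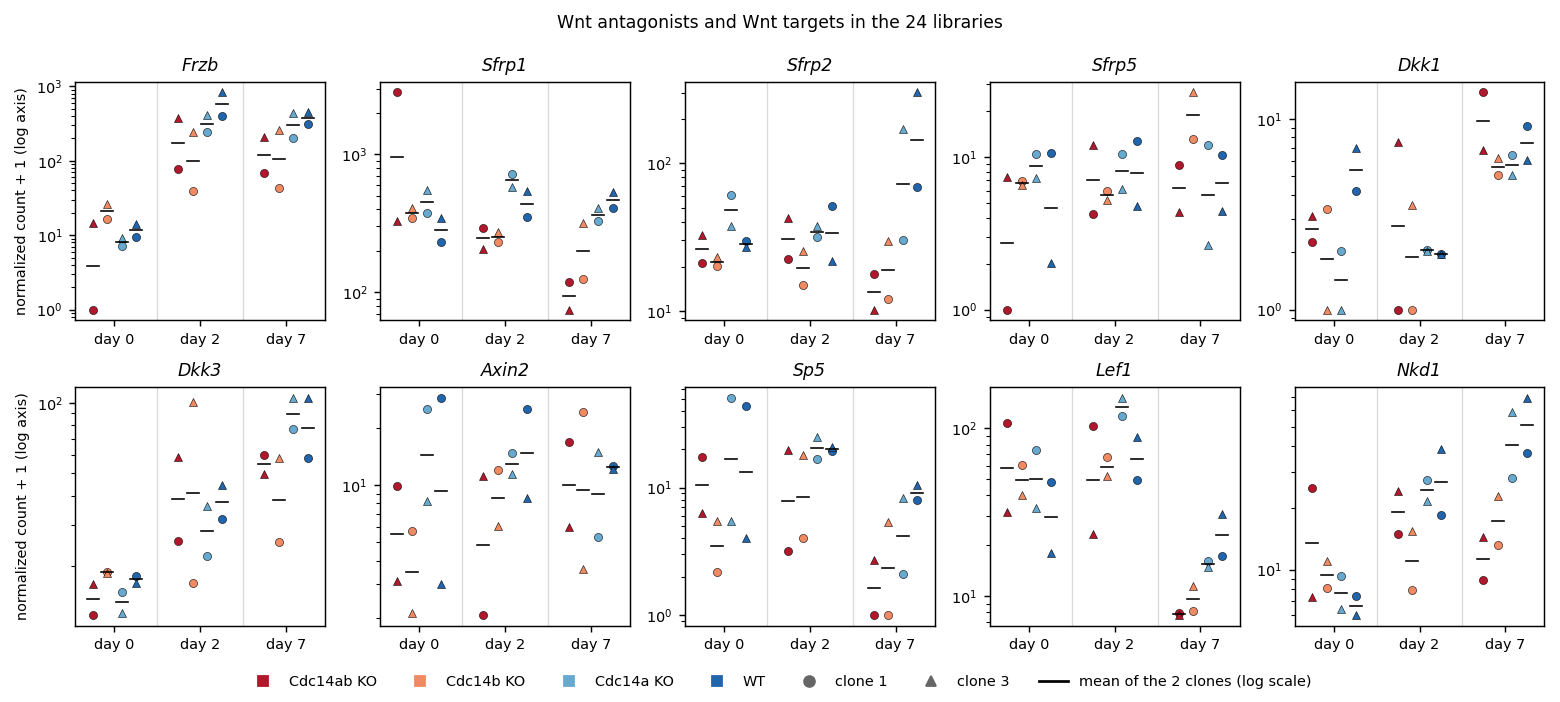
Normalized count + 1 (log axis) of each of the 10 genes in the 24 libraries, by day, with genotypes in colour, clone 1 as circles, clone 3 as triangles and the mean of each pair of clones on the log scale as a bar. Frzb lies at 0 to 25.6 normalized counts at day 0 and at 37.9 or more at days 2 and 7, Lef1 is lowest at day 7 (6.72 to 29.9), and Sfrp1 in Cdc14ab KO clone 1 at day 0 (2812) stands far above the other libraries.

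Of the 9 members tested (Dkk1 was too low for the filter), 3 rose and 0 fell between day 0 and day 2, when 8.5% of all genes rose and 6.36% fell (14.9% called in either direction). These were Frzb, Dkk3 and Nkd1, that is, 2 antagonists and 1 target. Between day 2 and day 7, 0 members rose and 2 fell, the targets Lef1 and Sp5, when 12.1% of genes rose and 9.3% fell (21.4% called). Over the whole course, 3 members were higher at day 7 than at day 0 (Frzb, Dkk3 and Nkd1) and 2 were lower (Lef1 and Sfrp1), when 20.9% of all genes were higher and 17.4% lower (38.2% called). Without WT day 7 clone 3, the library whose labels disagree, these 5 calls held: Frzb 4.32 (adjusted p = 6.07e-05), Dkk3 1.84 (0.000883), Nkd1 1.37 (0.00702), Lef1 -1.92 (0.000899) and Sfrp1 -1.02 (0.0353). In bulk RNA, fewer cells that express a gene and less of its RNA per cell cannot be told apart.

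**Figure D2:**
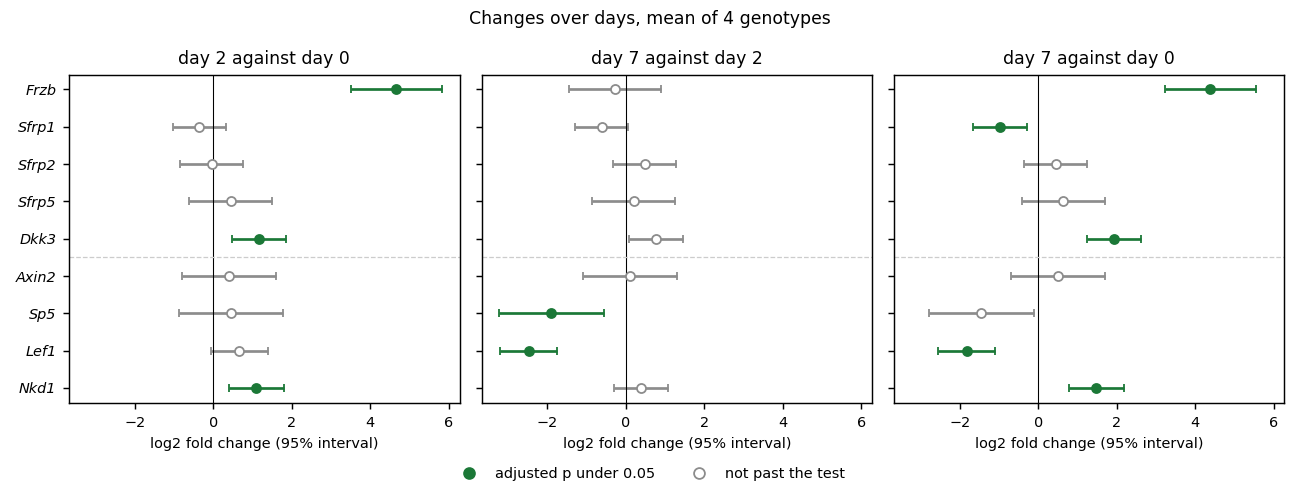
Log2 fold change with its 95% interval for the 9 members tested, antagonists above the dashed line and targets below it, for day 2 against day 0, day 7 against day 2 and day 7 against day 0, averaged over 4 genotypes. Filled points passed the test. Frzb changed most by day 2 (4.66), and Lef1 most between day 2 and day 7 (-2.48).

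Dkk3 rose by day 2 and was higher again at day 7 in 6 of 8 lines. It lies at chr7:112116017-112159057 on the minus strand. Over the 8 libraries of a day, its lowest, median and highest values were 11.4, 15.9 and 17.8 normalized counts at day 0, 15.9, 33.1 and 99.7 at day 2, and 24.3, 58.0 and 104 at day 7. Day 7 lay wholly above day 0, and day 2 overlapped both. The change was 1.17 ± 0.33 by day 2 (adjusted p = 0.0228, 7 of 8 lines) and 1.94 ± 0.33 by day 7 (adjusted p = 0.000182, 8 of 8 lines), and the day 7 call held in all 26 alternatives. The day 2 call was lost without clone 3 at day 2 of Cdc14ab KO (adjusted p = 0.0624), Cdc14b KO (0.0601) or Cdc14a KO (0.0566), and without the 3 libraries rich in Gm42418 (0.0893). The highest day 2 values of Dkk3 were in clone 3 of Cdc14b KO (99.7) and of Cdc14ab KO (57.3), whose summed feeder markers were 1877 and 932 normalized counts, and the part of feeder cells in these values was not tested. Day 7 against day 2 was not called (0.77, adjusted p = 0.0995), except without Cdc14b KO day 2 clone 3 (1.09, adjusted p = 0.0121). Within single genotypes Dkk3 was higher at day 7 than at day 0 in Cdc14a KO (2.67, adjusted p = 0.0167, lost without any 1 of its 4 libraries, 0.0615 to 0.132), where 9.26% of all genes were called. In Cdc14ab KO (1.92, adjusted p = 0.0523) and in WT (2.15, adjusted p = 0.0534) it was not called, but with lines as a replicate block it was (adjusted p = 0.032 and 0.0306).

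Sfrp1 (chr8:23411502-23449632, plus strand) did not move in the same direction in every line. At day 0 it had 2812 and 329 normalized counts in Cdc14ab KO, 347 and 410.0 in Cdc14b KO, 372 and 547 in Cdc14a KO, and 230.5 and 345 in WT. At day 7 it had 117 and 73.9 in Cdc14ab KO, 124 and 315 in Cdc14b KO, 327 and 408 in Cdc14a KO, and 407 and 530.1 in WT. It was lower at day 7 in the 4 Cdc14b-null lines and both Cdc14a KO lines and higher in both WT lines. The mean change was -0.97 ± 0.32 (adjusted p = 0.025, lower in 6 of 8 lines). Without the 3 libraries rich in Gm42418, which include the one at 2812, it was -0.55 (adjusted p = 0.0913). The call was also lost without Cdc14a KO day 0 clone 3, WT day 0 clone 3, Cdc14ab KO day 7 clone 3, Cdc14b KO day 7 clone 1, Cdc14a KO day 7 clone 1 or WT day 7 clone 1, with adjusted p between 0.0503 and 0.0684. In Cdc14ab KO alone Sfrp1 fell by 3.36 on the log2 scale (adjusted p = 0.00314), and by 1.81 without day 0 clone 1 (adjusted p = 0.0598). Day 2 against day 0 was not called (-0.36, adjusted p = 0.491), except without Cdc14ab KO day 0 clone 3 (-0.74, adjusted p = 0.0211).

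The other antagonists did not pass the test over days as an average. Sfrp2 (chr3:83766321-83774316, plus strand) had 19 to 60.3 normalized counts at day 0, 14.0 to 50.3 at day 2 and 9.23 to 299.6 at day 7, with changes of -0.04 by day 2 (adjusted p = 0.955) and 0.44 by day 7 (adjusted p = 0.379). Within WT it was 2.34 higher at day 7 than at day 0 without passing the test (adjusted p = 0.0698), and 3.40 without WT day 7 clone 1 (adjusted p = 0.0342) but 1.27 without WT day 7 clone 3 (adjusted p = 0.564). It was called there with edgeR (0.0435), DESeq2 (0.00602) and only the groups compared (0.0363). Sfrp5 (chr19:42197971-42202252, minus strand), another Frizzled-related protein, stayed between 0 and 25.4 normalized counts in all libraries, with 0.44 by day 2 (adjusted p = 0.593) and 0.64 by day 7 (adjusted p = 0.329). Dkk1 (chr19:30545863-30549665, minus strand), an inhibitor that Wnt signalling itself induces in several tissues, had 0 to 6.01 at day 0, 0 to 6.53 at day 2 and 4.05 to 12.8 at day 7. It was tested only with no filter on low values, where it was higher at day 7 than at day 2 (1.71, limma adjusted p = 0.0121) and than at day 0 (1.49, adjusted p = 0.0144). A single read was worth 0.726 to 1.27 normalized counts, so values of this size are a few reads each.

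Lef1 fell after day 2. It lies at chr3:131110471-131224356 on the plus strand. Its lowest, median and highest values were 17.0, 42.9 and 106 normalized counts at day 0, 22.5, 77.0 and 151 at day 2, and 6.72, 12.2 and 29.9 at day 7. Between day 2 and day 7 it was lower in 8 of 8 lines, with changes of -3.71 to -1.51 log2 units, and the groups overlapped only where WT clone 3 at day 7 (29.9) lay above Cdc14ab KO clone 3 at day 2 (22.5). The mean change was -2.48 ± 0.35 (adjusted p = 0.000115), and day 7 against day 0 gave -1.82 ± 0.35 (adjusted p = 0.000509, 7 of 8 lines). Both calls held in all 26 alternatives. Day 2 against day 0 was not called (0.66, 95% interval -0.07 to 1.38, adjusted p = 0.212). Within single genotypes Lef1 fell between day 0 and day 7 in Cdc14ab KO (-2.90, adjusted p = 0.0101, lost without day 0 clone 1, 0.17, or day 7 clone 3, 0.0686) and between day 2 and day 7 in Cdc14a KO (-3.12, adjusted p = 0.0367, when 1.1% of genes were called, lost without any 1 of its 4 libraries, 0.151 to 0.262). In Cdc14b KO the day 7 change from day 0 was -2.35 (adjusted p = 0.0588, and 0.0448 with lines as a replicate block).

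Sp5 (chr2:70474923-70477729, plus strand), which encodes a transcription factor, also fell after day 2, on few reads. At day 0 it ranged from 1.19 to 49.9 normalized counts, and its mean day 2 change was 0.45 (adjusted p = 0.676). By line, that change was 1.66 to 2.38 log2 units in clone 3 and -2.47 to 0.87 in clone 1. At day 2 it had 2.15 and 18.9 normalized counts in Cdc14ab KO, 2.99 and 16.9 in Cdc14b KO, 15.8 and 23.9 in Cdc14a KO, and 18.4 and 19.9 in WT. At day 7 it had 0 and 1.68 in Cdc14ab KO, 0 and 4.37 in Cdc14b KO, 1.09 and 7.32 in Cdc14a KO, and 6.98 and 9.39 in WT. Each of the 8 lines was lower at day 7 than at day 2, although the groups overlapped. A count of 0 allows up to 2.95 normalized counts in Cdc14ab KO clone 1 and 3.04 in Cdc14b KO clone 1 at day 7. The change was -1.89 ± 0.63 (adjusted p = 0.04). It was lost in 13 of 25 alternatives, among them a pseudocount of 5 (adjusted p = 0.0594) and the fit without the 3 libraries rich in Gm42418 (0.0661). It was also lost (adjusted p = 0.0582 to 0.102) without any 1 of the day 2 libraries other than clone 1 of Cdc14ab KO and of Cdc14b KO, and without any 1 of the day 7 libraries other than clone 3 of Cdc14ab KO, Cdc14b KO and Cdc14a KO. Day 7 against day 0 was not called (-1.45, adjusted p = 0.0788), but was with edgeR (0.0497) and DESeq2 (0.0174), and without Cdc14a KO day 0 clone 3 (0.0289), WT day 0 clone 3 (0.0253) or Cdc14b KO day 7 clone 3 (0.0474).

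The promoter of Sp5 is shown because it was the one target window that held the letters bound by TCF and LEF factors. The motifs searched were CTTTGAT and CTTTGTT on both strands, from 250 bases before to 50 bases after each transcript start in RefSeq (GRCm38.p6), and 8 of 10 members had a window there (11 windows). Sp5 held 2 matches and Dkk1 held 1, and the windows of Frzb, Sfrp2, Sfrp5, Axin2, Lef1 and Nkd1 held none. Of all 32851 windows of that length, 3.7% held CTTTGAT, 5.9% held CTTTGTT and 9.3% held either. The sequences below are 5′ to 3′ on the strand of the gene, with the motif, or its reverse complement, in capitals.
Sp5, chr2:70474690-70474719, plus strand, motif from 222 bases before the start: ttcctagagatAACAAAGacactttgtcac
Sp5, chr2:70474808-70474837, plus strand, motif from 104 bases before the start: ggcaaggccccCTTTGATcaggaaaatcca
Dkk1, chr19:30549576-30549605, minus strand, motif from 98 bases before the start: tcccatcccggCTTTGTTgtcttccctgag
The Dkk1 stretch lies inside the gene span given above (chr19:30545863-30549665), since the RefSeq start from which its window is counted lies inside that span too. The Nkd1 window (chr8:88527383-88527682) also lies inside its gene span (chr8:88521354-88594884), so the start of that span was not searched. The RefSeq windows of Sfrp1 and Dkk3 were not analysed here.

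Nkd1 (chr8:88521354-88594884, plus strand), which encodes a cytoplasmic antagonist that binds Dishevelled, rose rather than fell. Its lowest, median and highest values were 5.01, 6.76 and 24 normalized counts at day 0, 6.98, 19.1 and 37.9 at day 2, and 7.86, 24.5 and 68.3 at day 7. The day 2 change was 1.10 ± 0.33 (adjusted p = 0.0314, 6 of 8 lines), and the day 7 change from day 0 was 1.48 ± 0.33 (adjusted p = 0.0018, 7 of 8 lines). The day 7 call held in all 26 alternatives. The day 2 call was lost (adjusted p = 0.0594 to 0.0822) without day 0 clone 3 of Cdc14ab KO, Cdc14a KO or WT, day 0 clone 1 of Cdc14b KO, day 2 clone 3 of Cdc14ab KO, Cdc14b KO or WT, or day 2 clone 1 of Cdc14a KO. Within genotypes Nkd1 rose by day 7 in Cdc14a KO (2.40, adjusted p = 0.0293, lost without any 1 of its 4 libraries, 0.0529 to 0.235) and in WT (2.92, adjusted p = 0.011, lost without day 0 clone 1, 0.0543, day 0 clone 3, 0.0915, or day 7 clone 3, 0.175). In Cdc14ab KO it was 7.86 and 13.4 normalized counts at day 7, against 24 and 6.33 at day 0 (-0.26, adjusted p = 0.82).

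Axin2 (chr11:108920349-108950783, plus strand), a widely used readout of canonical Wnt activity, did not pass the test in any comparison. It had 8.86 and 2.11 normalized counts in Cdc14ab KO, 4.75 and 1.11 in Cdc14b KO, 23.9 and 7.18 in Cdc14a KO, and 27.7 and 2.00 in WT at day 0. At day 2 it ranged from 1.08 to 24.2, and at day 7 from 2.62 to 23.3. The mean changes were 0.40 by day 2 (95% interval -0.79 to 1.59, adjusted p = 0.674) and 0.50 by day 7 (95% interval -0.69 to 1.70, adjusted p = 0.509). For these means over genotypes, a rise of 1 log2 unit lay inside both intervals and a fall of 1 outside both. Single lines moved both ways. By day 2 the change was 0.475 to 1.84 log2 units in clone 3 lines and -2.25 to 1.06 in clone 1 lines. By day 7 it was -2.22 to 2.08 over the 8 lines. At day 0 both Axin2 and Lef1 were lower in clone 3 than in clone 1 in all 4 genotypes, by 1.45 to 3.26 log2 units for Axin2 and 0.60 to 1.76 for Lef1. The profiles most like that of Axin2 were those of Cpeb4 (Pearson r = 0.724), Erlec1 (0.690), C1d (0.682), Appbp2 (0.677) and Clic4 (0.671), over 24 libraries as above.

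Cdc14b-null and Cdc14b-intact lines were compared at each day, 4 libraries against 4. No member was called at day 0, when 0.0124% of all genes were, or at day 2, when 0% were. At an unadjusted p under 0.05 limma listed 1909 genes at day 0 and 1150 at day 2, and edgeR called 2 and 0 genes and DESeq2 68 and 49, with 0 members among them. At day 2 Frzb had 37.9 to 381 normalized counts in Cdc14b-null lines and 244.5 to 830.4 in Cdc14b-intact lines (-1.71, 95% interval -3.36 to -0.07, adjusted p = 0.699), with 2 of the 4 null libraries below every intact one. At day 7, 2 of the 9 members were lower in Cdc14b-null lines, Sfrp2 and Nkd1, and 0 were higher, when 2.95% of all genes were lower and 0.805% higher (3.75% called). In 4 of the 9 (Sfrp2, Nkd1, Sfrp1 and Lef1) every Cdc14b-null library lay below every Cdc14b-intact library, as in 7.87% of all genes (15.6% were apart in either direction).

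Sfrp2 at day 7 had 16.7 and 9.23 normalized counts in Cdc14ab KO and 11.1 and 28.9 in Cdc14b KO, against 29.3 and 170.1 in Cdc14a KO and 67.4 and 299.6 in WT. The 4 Cdc14b-null libraries lay below the 4 Cdc14b-intact libraries, by a narrow gap between 28.9 and 29.3. The difference was -2.67 ± 0.54 (adjusted p = 0.0116). It was lost without WT day 7 clone 3 (-2.13, adjusted p = 0.117), Cdc14a KO day 7 clone 3 (-2.04, 0.0846), Cdc14b KO day 7 clone 1 (-2.34, 0.0929) or Cdc14ab KO day 7 clone 3 (-2.47, 0.0541), and with only the day 7 groups in the fit (0.0665). Sfrp2 was also the one member called between a knockout and WT, in Cdc14ab KO at day 7 (-3.41 ± 0.76, adjusted p = 0.0332, when 1.53% of all genes were called, 0.0805% higher and 1.45% lower). That call was lost without WT day 7 clone 3 (-2.35, adjusted p = 0.751) or Cdc14ab KO day 7 clone 3 (-3.02, 0.37), with only the groups compared (0.202) and without the 3 libraries rich in Gm42418 (0.067). In the other 8 comparisons of a knockout with WT, limma and edgeR called 0 members and 0% of genes, while 70 to 2564 genes had an unadjusted limma p under 0.05 and DESeq2 called 0 to 447 genes. DESeq2 called Sfrp1 in Cdc14ab KO at day 0 (2.45, adjusted p = 0.0119) and Sfrp2 in Cdc14b KO at day 7 (-3.19, adjusted p = 0.01). Without Cdc14ab KO day 0 clone 3, which leaves the library with 0 reads of Frzb and 2812 normalized counts of Sfrp1, limma called Frzb (-3.53, adjusted p = 0.0488) and Sfrp1 (3.31, 0.000421) there.

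Nkd1 at day 7 had 7.86 and 13.4 normalized counts in Cdc14ab KO and 12.2 and 21.9 in Cdc14b KO, against 27.2 and 57.8 in Cdc14a KO and 36.0 and 68.3 in WT. The groups did not overlap. The difference was -1.70 ± 0.47 (adjusted p = 0.0493), and it was lost in 11 of 18 alternatives, including each day 7 library left out other than Cdc14b KO clone 3 (adjusted p = 0.0519 to 0.259, and -1.47 with 0.259 without WT clone 3).

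Sfrp1 and Lef1 were also separated between the groups at day 7, without passing the test. Sfrp1 had 73.9 to 315 normalized counts in Cdc14b-null lines and 327 to 530.1 in Cdc14b-intact lines (-1.60 ± 0.46, adjusted p = 0.0586). It was past the threshold with DESeq2 (0.0133), with only the groups compared (0.0452), without the 3 libraries rich in Gm42418 (0.0152) and without Cdc14b KO day 7 clone 3 (0.0312). At day 2 Sfrp1 was also apart, at 203 to 294 in Cdc14b-null lines and 350.1 to 725 in Cdc14b-intact lines (-1.09, adjusted p = 0.676), as were 3.99% of all genes in that direction. Lef1 at day 7 had 6.72 to 10.5 in Cdc14b-null lines and 13.8 to 29.9 in Cdc14b-intact lines (-1.13 ± 0.49, adjusted p = 0.211). Frzb had 42.5 to 261 in Cdc14b-null lines and 204 to 452 in Cdc14b-intact lines (-1.58, 95% interval -3.23 to 0.06, adjusted p = 0.278). At day 0 Sfrp1 gave 0.76 (adjusted p = 0.536), and 1.53 (0.0102) without Cdc14ab KO day 0 clone 3, which leaves the library at 2812 alone in its group.

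**Figure D3:**
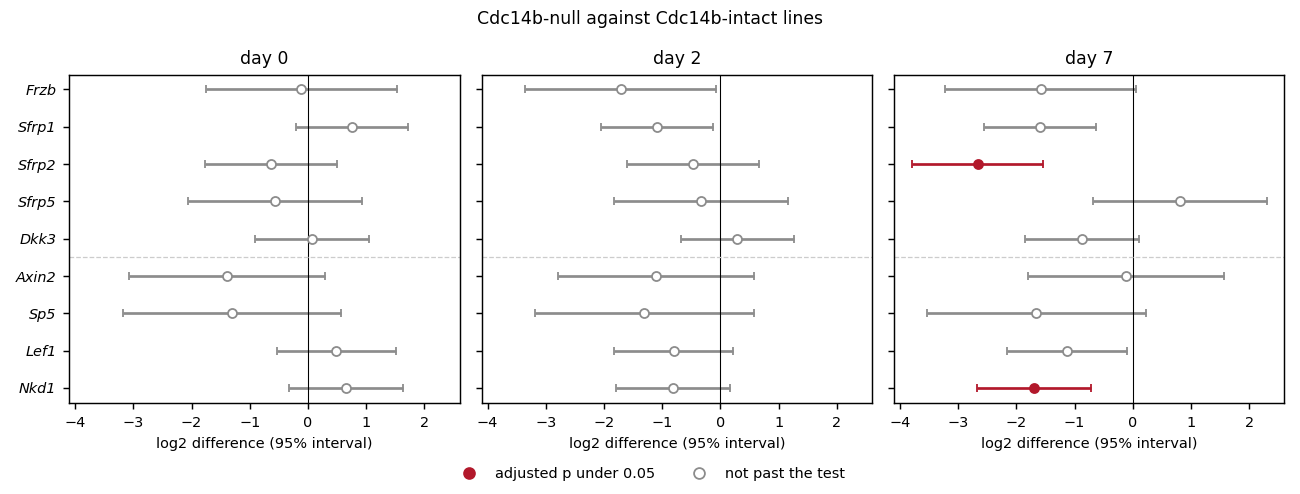
Log2 difference with its 95% interval between Cdc14b-null and Cdc14b-intact lines for the 9 members tested at days 0, 2 and 7, with antagonists above the dashed line. At day 7 Sfrp2 (-2.67) and Nkd1 (-1.70) passed the test, and the intervals of Sfrp1 (-2.56 to -0.63) and Lef1 (-2.15 to -0.10) lay below 0 without passing it after adjustment.

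Whether the change over days itself differed between Cdc14b-null and Cdc14b-intact lines was tested as an interaction. By day 2, 0 members and 0% of genes were called. By limma without a block, 2019 genes had an unadjusted p under 0.05, and DESeq2 called 42 genes, with 0 members. Sfrp1 gave -1.85 (adjusted p = 0.312), and -2.62 (0.0038) without Cdc14ab KO day 0 clone 3. By day 7, 0 members were called, when 3.26% of genes were (1.58% higher and 1.68% lower). Sfrp1 (-2.35 ± 0.65, adjusted p = 0.0531) and Nkd1 (-2.36 ± 0.66, adjusted p = 0.0556) came nearest. With lines as a replicate block Sfrp1 was called (adjusted p = 0.0243), as it was with edgeR (0.0405), and with DESeq2 so were Sfrp1 (0.00233), Nkd1 (0.0129) and Sfrp2 (0.0286). Leaving out Cdc14ab KO day 0 clone 3 gave calls for Sfrp1 (-3.13, adjusted p = 0.000845) and Nkd1 (-2.80, 0.0106), as did leaving out Cdc14b KO day 7 clone 3 (0.0367 and 0.0483).

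Markers of other cells moved with these day 7 differences. The feeder fibroblast sum (10 of 10 listed) was 377 to 2029 normalized counts in Cdc14b-null lines and 2347 to 3224 in Cdc14b-intact lines at day 7. Of its genes, Col1a1 was at 159 to 1549 in Cdc14b-null lines and 1515 to 2331 in Cdc14b-intact lines, Dcn at 8.1 to 85.7 in Cdc14b-null lines and 48.9 to 274 in Cdc14b-intact lines, and Lum at 0 to 7.87 in Cdc14b-null lines and 9.78 to 86.2 in Cdc14b-intact lines. The Cdc14b-null median was lower for 8 of the 10 genes and higher for Pdgfrb (51.6 to 78.9 in Cdc14b-null lines, 17.4 to 51.2 in Cdc14b-intact lines) and Postn (7.86 to 27.7 in Cdc14b-null lines, 5.43 to 13.9 in Cdc14b-intact lines), and 0 of 10 were called. Over days, 8 of the 10 were higher at day 7 than at day 0 and Thy1 was lower (-1.26, adjusted p = 0.0438), when 20.9% of all genes were higher and 17.4% lower. The neuron sum (10 of 10 listed) was 1252 to 2596 in Cdc14b-null lines and 3317 to 10453 in Cdc14b-intact lines, with 7 of 10 genes called lower. Of the neural progenitor markers, 3 of 9 were called lower. Between Cdc14b-null and Cdc14b-intact lines at day 7, 2.95% of all genes were called lower and 0.805% higher. Without WT day 7 clone 3, 0 neuron and 0 neural progenitor markers were called, with medians of -2.17 and -1.12 log2 units, against -2.50 and -1.88 with it. The part of these cells in the values of Sfrp2, Nkd1, Sfrp1 and Lef1 was not tested.

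Other genes of the pathway were counted by role. Of 12 other genes counted here as secreted antagonists, Dkkl1 by its family alone, 8 were listed and 6 tested. Of the 6, 4 were higher and 1 lower at day 7 than at day 0, with a median of 1.82 log2 units against 0.03 over all genes. Of all genes, 20.9% were higher and 17.4% lower. Without WT day 7 clone 3, 3 of the 6 antagonists were called higher and 0 lower. Those higher with all libraries were Dkk2 (1.52, adjusted p = 0.03), which had already risen by day 2 (2.20, adjusted p = 0.00921), the Dickkopf-like gene Dkkl1 (2.40, adjusted p = 5.72e-05), the axon guidance protein gene Draxin (2.26, adjusted p = 5.8e-05), and Igfbp4, which encodes an insulin-like growth factor binding protein (2.12, adjusted p = 2.74e-05). At day 7 Draxin (12.2 to 24.5 normalized counts in Cdc14b-null lines, 52.1 to 233 in Cdc14b-intact lines, -2.67, adjusted p = 0.00626) and Igfbp4 (158 to 412 in Cdc14b-null lines, 342 to 1336 in Cdc14b-intact lines, -1.58, adjusted p = 0.042) were lower in Cdc14b-null lines, and the Draxin change over days differed between them (-2.74, adjusted p = 0.0382). Without WT day 7 clone 3 these 3 calls were lost, at -2.20 (adjusted p = 0.0736) and -1.26 (0.26) for the levels of Draxin and Igfbp4 and -2.27 (0.127) for the Draxin change. Each was also lost without other single libraries, 3 in all for the Draxin level, 5 for Igfbp4 and 11 for the Draxin change. The day 7 rise of Dkk2 was lost without any 1 of 8 libraries (adjusted p = 0.05 to 0.0673), WT day 7 clone 3 among them (1.47, 0.0595), and those of Dkkl1, Draxin and Igfbp4 held without that library (adjusted p = 0.000239, 0.000254 and 0.000137).

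Of 12 ligand genes tested, counting the secretion factors Porcn and Wls, 9 were higher at day 7 than at day 0 and 0 were lower (median 1.47), when 20.9% of all genes were higher and 17.4% lower. Markers of other lineages moved with them between day 0 and day 7. Of those tested, 6 of 6 endoderm, 5 of 9 trophectoderm, 4 of 7 mesoderm and 5 of 9 neural crest markers were higher. In neural crest 1 was lower, and in the other lists 0 were. The median changes were 1.93, 2.85, 1.19 and 1.01 log2 units in that order, and 1.92, 2.88, 1.14 and 1.03 without WT day 7 clone 3. Cdc14ab KO day 7 clone 3 had the highest ligand sum of that day (7427 normalized counts, 1883 to 5283 in the others) and the highest trophectoderm sum (46144, 6856 to 12303 in the others), and without it 9 ligand genes were again called higher. Without WT day 7 clone 3, the library whose labels disagree, 7 ligand genes were called higher and 0 lower. The part of these lineages in the ligand values was not tested. Wnt7a (3.95, adjusted p = 2.79e-06), Wnt6 (2.74, 0.000524), Wls (1.71, 0.000602) and Wnt4 (1.42, 0.00115) were among them, and Wnt7a was lower at day 7 in Cdc14b-null lines, at 5.06 to 28.5 normalized counts, than in Cdc14b-intact lines, at 46.5 to 182 (-2.33, adjusted p = 0.0454). That call was lost without any 1 of 5 libraries (adjusted p = 0.0911 to 0.271), WT day 7 clone 3 among them (-1.88, 0.271). Of 19 receptor genes tested, 3 rose and 3 fell (20.9% and 17.4% of all genes did), with Fzd4 (1.71, adjusted p = 0.000281) and Fzd2 (1.35, 0.00149) higher and Fzd5 (-1.46, 0.000237) and Fzd7 (-1.27, 0.00223) lower. Of 23 genes of the destruction complex and its nuclear effectors, 8 rose and 1 fell (median 0.09 against 0.03 over all genes), with Apc2 (1.79, adjusted p = 0.000261), Tcf7l2 (1.17, 0.000123) and the Dishevelled gene Dvl3 (1.17, 4.76e-05) higher and the co-repressor Tle4 lower (-1.71, 3.03e-07).

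Of 18 other target genes tested, 3 were higher and 5 lower at day 7 than at day 0 (median -0.10), when 20.9% of all genes were higher and 17.4% lower. By day 2, 4 of the 18 had risen and 1 had fallen, when 8.5% of all genes had risen and 6.36% fallen. Between day 2 and day 7, 1 of the 18 rose and 5 fell (median -0.50 against 0.05 over all genes), when 12.1% of all genes rose and 9.3% fell. Among those that fell were T, the primitive streak factor brachyury (-3.42, adjusted p = 0.00304), Cdx4 (-2.11, 0.00432) and Tnfrsf19 (-0.85, 0.0313, lost without any 1 of 8 libraries, 0.0559 to 0.0788), which had risen by day 2 (1.32, adjusted p = 0.003). Myc was lower at day 7 than at day 0 (-2.37, adjusted p = 0.00109). Without WT day 7 clone 3, the calls over days given here for named ligand, receptor, effector and other target genes held. The counts for day 7 against day 0 changed. Of the receptors, 2 were then higher and 4 lower, of the effectors 7 higher and 1 lower, and of the other targets 3 higher and 4 lower. T had 0 to 4.07 normalized counts at day 7 and 1.99 to 112 at day 2. Notum, Apcdd1, Lgr5, Ror2 and Tcf7 stand in 2 of these lists, since they are both targets and parts of the pathway.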

How the data were processed

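RNA of mouse embryonic stem cell lines was sequenced with QuantSeq 3′ FWD, a stranded kit that reads the 3′ end of transcripts. The deposited signal values are gene counts that the authors normalized with DESeq2. The build is GRCm38, and HTSeq 0.6.1, SAMtools 0.1.19, TopHat2 2.0.10 with Bowtie 1.0.0, and FastQC 0.11.7 are named, per the submitters' processing notes. The annotation is not given in the sources used here. Of the values, 100% were whole multiples of the smallest in their column within a tolerance of 0.001, so whole reads were recovered (6422883 to 10856721 per library, median 8015247).

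Values were tested with limma 3.58.1 (R 4.3.3, trend and robust) on log2(normalized count + 1), with 12 group means over all 24 libraries. A gene entered the test where 2 or more libraries reached 10 normalized counts (16158 of 17545), and p-values were adjusted by Benjamini-Hochberg over all of them. A call is an adjusted p under 0.05. The procedure was tested on simulated data. With 2 clones a group, an exact permutation test cannot go below p = 0.33 between groups, and limma assumes that groups vary alike. The labels say that replicates are clones and do not say whether clones came from separate blastocysts, so p-values measure the spread between clones. No column was left out, and the clones of each group differed beyond sampling noise (chi-square per gene 26.0 to 155.7 in 12 pairs).

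Libraries with the same genotype and clone number on different days are the same line, so a replicate block by line is given beside a result where it changes a call. Deviations from group means correlated at -0.115 to 0.248 within lines across days. The members, gene lists, tests and alternatives were chosen with earlier results of these data known. All members are named, and up to 4 genes of smallest adjusted p from each other Wnt list. Alternatives were TMM factors, DESeq2 1.42.0 and edgeR 4.0.16 on recovered reads, a filter of 50 or none, a pseudocount of 0.25 or 5, only the groups compared, leaving out the 3 libraries richest in Gm42418, blocks, and leaving out each library. Figures were drawn with matplotlib 3.10.9.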

Additional observations from a re-analysis of the deposited data

Results flagged for a closer look

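In 60 sets of 4 libraries (each member at each day in Cdc14b-null or Cdc14b-intact lines), the gap between the highest or lowest library and its neighbour was compared with the range of the set, both on the scale of log2(normalized count + 1), and 4 sets exceeded Dixon's critical ratio for 4 values. Chance gives about 1 in 20, or 3.0 of 60. In Cdc14ab KO clone 1 at day 0, Sfrp1 (2812 normalized counts, ratio 0.898) was far above the other Cdc14b-null libraries and Sfrp5 (0 normalized counts, ratio 0.944) far below them. That library is also 1 of the 3 rich in Gm42418. Sp5 in Cdc14a KO clone 1 at day 7 (1.09 normalized counts, ratio 0.835) was below the other Cdc14b-intact libraries, and Lef1 in Cdc14b KO clone 3 at day 7 (10.5 normalized counts, ratio 0.881) was above the other Cdc14b-null libraries.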

How the results depend on the processing

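Of 261 results for single members, 25 were called, and 6 of these held under every alternative tried: Frzb at day 2 and day 7, Dkk3, Lef1 and Nkd1 at day 7, all against day 0, and Lef1 at day 7 against day 2. Of 236 not called, 23 passed under at least 1 alternative, and 0 results reversed direction. Every alternative was planned, and these are the counts of members called that moved by over 1.5 times, with the smaller moves over days. For day 2 against day 0 (3 called), leaving out the libraries rich in Gm42418 gave 2. For day 7 against day 0 (5), that gave 4, and no filter, edgeR and DESeq2 each gave 6. For day 7 against day 2 (2), a pseudocount of 5, a filter of 50 and leaving out the libraries rich in Gm42418 each gave 1, and no filter gave 3. With no filter Dkk1 enters the test, and it is the call added in both. At a filter of 50 Sp5, with a highest value of 49.9 normalized counts, was not tested. For Cdc14b-null against Cdc14b-intact lines at day 7 (2), a pseudocount of 0.25, no filter, a filter of 50 and only the groups compared each gave 1. For the difference in the day 7 change (0), a pseudocount of 5, a filter of 50, edgeR and the replicate block by line each gave 1 and DESeq2 gave 3. For Cdc14ab KO against WT, DESeq2 gave 1 at day 0 (0 called) and 3 at day 7 (1 called), where only the groups compared gave 0. For Cdc14b KO against WT at day 7 (0), DESeq2 gave 1. For changes over days within a genotype (12), DESeq2 gave 19 and the fit without the Gm42418-rich libraries 6. The cause was not tested.

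Leaving out 1 library gave 1 to 3 members for day 2 against day 0 (3), 1 to 2 for day 7 against day 2, 4 to 6 for day 7 against day 0 (5), 0 to 1, 0 to 0 and 0 to 3 for Cdc14b-null against Cdc14b-intact lines at days 0, 2 and 7, 0 to 1 and 0 to 2 for the differences in the day 2 and day 7 changes, 0 to 2 and 0 to 1 for Cdc14ab KO against WT at days 0 and 7, and 8 to 13 within genotypes. A lone clone is then assumed to vary like the others. Over all genes, edgeR on recovered reads called 2472, 3665 and 6350 for day 2 against day 0, day 7 against day 2 and day 7 against day 0, where limma called 2402, 3464 and 6180. Libraries of the same clone number and day in different genotypes also deviated alike (r = -0.134 to 0.628, over 0.1 in 16 of 18 pairs). Within lines across days r was -0.115 to 0.248. What clones of the same number share was not tested, and a block by clone number was not fitted to the comparisons over days. For Cdc14b-null against Cdc14b-intact lines at day 7 this block called 920 genes, where the fit without it called 606, and it changed no member's call. DESeq2 called 1423 there. The block by line changed no member's call other than those given above. At a read worth about 1 normalized count, Dkk1, Sfrp5, Axin2 and Sp5 rest on few reads, which limits what their values can show.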
